A study of Rattus norvegicus with 9 samples.

Results

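Collagens are extracellular proteins built from 3 α chains, each with long runs of glycine-X-Y triplets, that wind into a triple helix. The genes described here are the collagen chain genes of the rat, taken as every RefSeq symbol made of Col, a type number, a and a chain number, and 10 genes whose products process the chains: P4ha1, P4ha2, P4ha3, Plod1, Plod2, Plod3, Serpinh1, Pcolce, Bmp1 and Adamts2. The rule found 54 of the 36856 genes in the quantification tables, 44 chains and 10 processing genes. RNA was measured in 9 libraries of H9c2(2-1), a clonal myoblast line derived from embryonic BD1X rat heart tissue and labelled wild type, with 3 libraries in each of 3 groups. Control cells had no treatment and stayed in normal medium. ESW cells received energized structured water and CW cells received the control water, both diluted to 0.01; treatment lasted 72 h and freshly diluted water was supplied every 24 h, and neither time is given for the Control cells themselves. The comparisons ask how ESW-treated cells differ from untreated cells and from cells given the control water. All 3 groups are the same line, so they describe 1 clone. The labels do not say whether the libraries came from separate cultures. The p-values therefore set a group difference only against the spread among these samples, and that spread may be technical.

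Collagen chains are made in the endoplasmic reticulum, where prolyl 4-hydroxylases and lysyl hydroxylases modify the chains and the chaperone HSP47, encoded by Serpinh1, binds the folded helix. After secretion, propeptides are cut off by BMP1-type and ADAMTS proteinases, and fibrillar collagens then assemble into fibrils that lysyl oxidases crosslink. In the heart, types I and III form the bulk of the interstitial fibrils, while type IV forms the sheet of the basement membrane around muscle cells.

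The promoters of genes that the results turn on are shown first, as RefSeq sequence of build GRCr8 on the plus strand, with matches to CCAAT, to GGGCGG and to TATAAA on either strand in capitals. Col1a2, an abundant chain that rose in ESW cells, is shown from 250 to 101 bases before its start at chr4:33518307-33518456, because it alone among the members at 10 TPM or more with a promoter entry held a TATAAA match.
Col1a2: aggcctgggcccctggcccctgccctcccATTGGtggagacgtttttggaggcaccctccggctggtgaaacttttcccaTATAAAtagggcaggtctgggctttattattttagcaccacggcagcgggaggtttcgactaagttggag
Pcolce, the most abundant processing gene that rose, is shown from 150 bases before its start at chr12:24720822-24720971.
Pcolce: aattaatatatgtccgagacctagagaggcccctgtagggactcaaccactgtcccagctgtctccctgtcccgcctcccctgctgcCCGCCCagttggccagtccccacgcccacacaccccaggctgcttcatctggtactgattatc
Col4a1 and Col4a2 lie head to head with annotated starts 77 bases apart, Col4a2 on the minus and Col4a1 on the plus strand, so the 76 bases between the starts at chr16:84885521-84885596 serve as the upstream sequence of both.
Col4a1 and Col4a2: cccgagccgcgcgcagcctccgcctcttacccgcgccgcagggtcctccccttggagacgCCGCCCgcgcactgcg

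Of the 54 genes, 44 had a promoter entry, and the 250 bases before each start were searched on both strands for the 3 motifs; a CCAAT match and a GGGCGG match can share bases where one runs into the other. GGGCGG was held by 19 of the 23 members at 10 TPM or more (82.6%), against 61.4% of the 7190 promoters of all genes at that level and 30.5% of all 33469 promoters. CCAAT was held by 5 of the 23, against 36.0% and 34.0%, and TATAAA by 1, against 5.98% and 12.9%. Among the 18 members under 1 TPM with an entry, 6 held GGGCGG and 3 held TATAAA. A match describes letters only. Col1a1, Col3a1, Col2a1, Col14a1, Col25a1, Col9a3, Col12a1, Bmp1, Col22a1 and Col6a2 have no entry.

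The libraries held between 26748673 (CW replicate 1) and 48574618 (Control replicate 3) estimated reads, and between 13913 and 15002 genes with at least 10 reads. Of the labelled cell type's markers, Ncam1 (mean 128 TPM), Cdh15 (18.7), Myod1 (9.25), Des (4.03) and Myog (3.29) were present, while Myf5 and Pax7 were under 1 TPM. TPM is a level per transcript length that can be compared between genes. Of the cardiomyocyte markers 6 of 8 were under 1 TPM, while Tnnt2 averaged 66.6 TPM and Tnni3 2.01. Also under 1 TPM were markers of endothelium (5 of 5), blood (5 of 5), osteoblasts (4 of 5), chondrocytes (4 of 6) and epithelium (4 of 5). The exceptions were Runx2 (8.05 TPM) for osteoblasts, Sox9 (7.35) and Matn3 (2.71) for chondrocytes and Krt8 (51.1) for epithelium. Smooth muscle markers were high, with 4 of 5 at 10 TPM or more, and their summed level was 16817 to 17084 TPM in Control, 17816 to 18260 in ESW and 16151 to 17349 in CW. The fibroblast markers Pdgfra and Fap were at or near 0, while S100a4, Vim, Lum, Thy1 and Dcn were present, and the 7 markers summed to 7195 to 7777 TPM in Control, 6807 to 6951 in ESW and 7066 to 7744 in CW. The lower ESW sum went with S100a4 alone, at means of 3837 TPM in Control, 2993 in ESW and 3813 in CW. In the same order Vim averaged 2873, 3069 and 2876 TPM, Lum 405, 434 and 424, Thy1 364, 383 and 352, and Dcn 12.6, 13.2 and 14.8. In bulk RNA, fewer cells of a type and less RNA per cell cannot be told apart.

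The fibrillar chains, which form the load-bearing fibrils, dominated the collagen RNA of these cells. They held 95.6% to 95.9% of all chain TPM in each library, and Col1a1, Col1a2 and Col3a1 alone held 88.1% to 89.1%. Over the 9 libraries the highest mean levels were those of Col1a2 (11594 TPM), the α2 chain of type I, and Col1a1 (9946 TPM), the α1 chain of type I. The ranges of these 2 neighbours overlapped across libraries, from 10357 to 13221 TPM for Col1a2 and from 8854 to 11826 for Col1a1, although Col1a2 was above Col1a1 within each library. Col3a1, the only chain of type III, followed at 4730 TPM. The type V chains, minor partners that regulate fibril width, ranked Col5a2 (1224 TPM), Col5a1 (761 TPM) and Col5a3 (77.8 TPM). Col11a1, a chain of the related type XI, averaged 35.7 TPM and Col27a1, the chain of type XXVII, 15.1 TPM. Col2a1, the cartilage chain, was at 0.0816 TPM, and Col11a2 and Col24a1 were also under 1 TPM.

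Outside the fibrillar class the highest chain was Col4a1 of type IV. Type IV chains made up 2.69% to 2.92% of chain TPM, led by Col4a1 (437 TPM) and Col4a2 (321 TPM), which together form the common heterotrimer of basement membranes, and followed by Col4a5 (79.6 TPM) and Col4a6 (6.42 TPM). Col4a3 and Col4a4 were under 1 TPM. The short-chain network collagens held Col8a1 (230 TPM) and Col8a2 (25.4 TPM), with Col10a1, the chain of hypertrophic cartilage, under 1 TPM. Of the fibril-associated collagens, which bind to fibril surfaces, Col12a1 (103 TPM) and Col16a1 (39.1 TPM) were present and Col20a1 stood at 1.38 TPM. The multiplexins Col15a1 and Col18a1, basement membrane proteoglycans, averaged 22.0 and 10.9 TPM. Type VI needs 3 different chains for its usual molecule, and their levels differed widely: Col6a3 averaged 7.57 TPM, Col6a2 0.890 and Col6a1 0.204.

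In all, 24 of the 44 chains averaged under 1 TPM. Of these, 11 did not pass the filter on low counts and were not tested: Col13a1, Col17a1, Col22a1, Col23a1, Col25a1, Col28a1, Col4a4, Col6a4, Col6a5, Col6a6 and Col9a1. Their highest estimated count in any library was 21.2 reads, for Col17a1. Col25a1, Col6a4, Col6a5 and Col6a6 were listed at 0 in every library, which at a floor of 3 counts per library allows up to 0.0618 to 0.112 CPM (counts scaled to the library total), a limit that covers counting error only. The other 43 members were tested, 33 chains and all 10 processing genes. Of the tested chains 13 were under 1 TPM (Col10a1, Col11a2, Col14a1, Col19a1, Col24a1, Col26a1, Col2a1, Col4a3, Col6a1, Col6a2, Col7a1, Col9a2 and Col9a3), and 0 of them were called in any of the 3 comparisons described below. Over all genes tested, 4.76% were called higher and 3.28% lower in ESW than in Control. Against CW these shares were 4.15% and 3.99%, and between CW and Control 0.177% were called in either direction. A count of 0 among 13 therefore does not set these chains apart from other genes. Nearest to the threshold among the 13 was Col11a2, a chain of type XI, with a log2 difference of -0.97 ± 0.30 between ESW and CW (edgeR adjusted p = 0.0534). It was called lower than in CW in DESeq2 (adjusted p = 0.0437), with a filter at 1 CPM (edgeR adjusted p = 0.0443), with no filter (0.00372), with only these 2 groups in the fit (0.0152) and without Control replicate 1 (0.0101), and lower than in Control without Control replicate 1 (0.0184). With no filter Col2a1 was called lower than in Control (edgeR adjusted p = 0.0156).

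**Figure D1:**
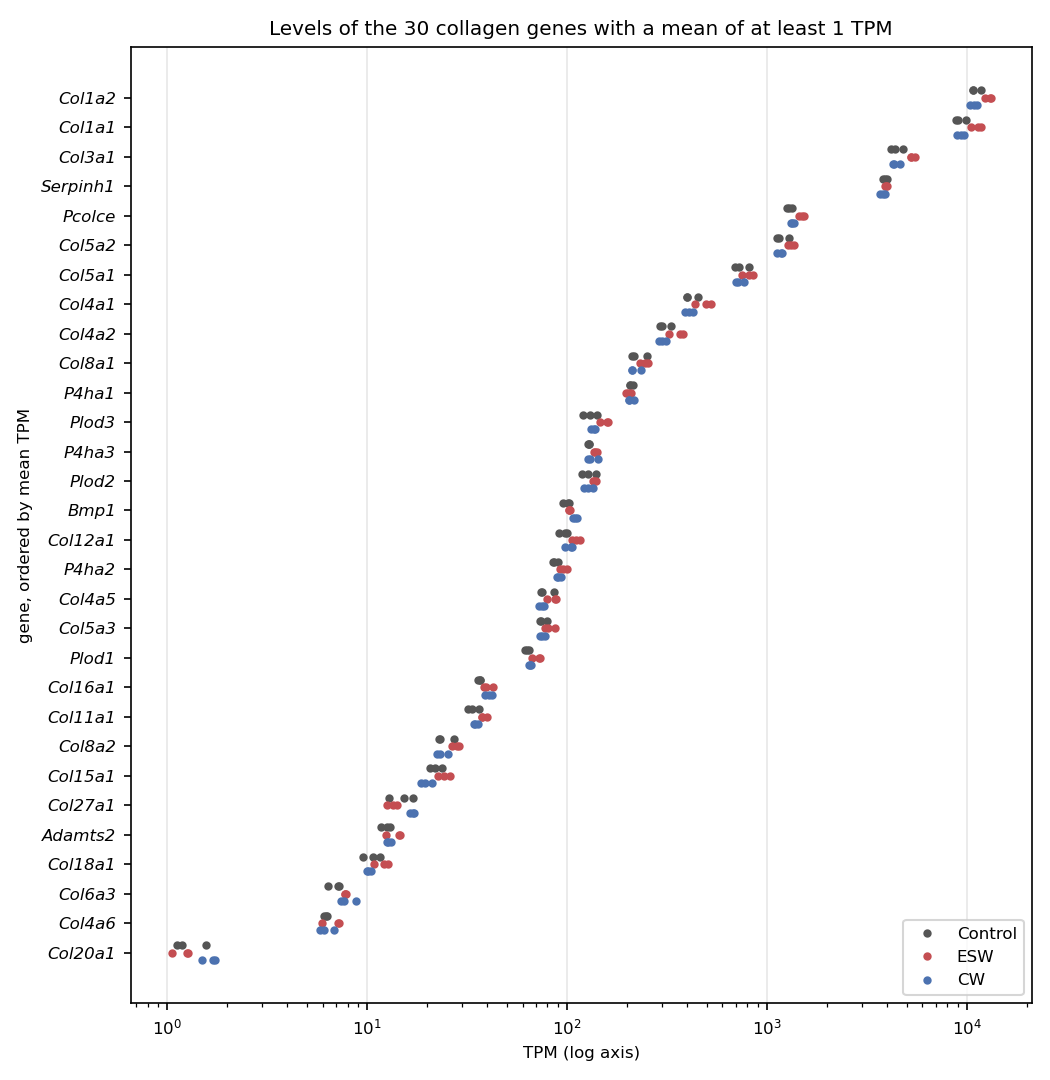
Level of the 30 collagen genes that averaged at least 1 TPM, in TPM on a log axis, with 1 point per library and the genes ordered by their mean over 9 libraries. The levels span from 1.38 TPM for Col20a1 to 11594 TPM for Col1a2, and the ESW points lie to the right of the Control and CW points for Col1a2, Col1a1, Col3a1 and Pcolce.

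All 10 processing genes averaged at least 13.0 TPM. Serpinh1 had the highest level at 3879 TPM, followed by Pcolce at 1378 TPM, whose product enhances the removal of the C-terminal propeptide. The prolyl 4-hydroxylase α subunits, which make the 4-hydroxyproline that stabilises the helix, ranked P4ha1 (207 TPM), P4ha3 (134 TPM) and P4ha2 (91.4 TPM). The lysyl hydroxylases ranked Plod3 (141 TPM), Plod2 (132 TPM) and Plod1 (66.6 TPM), and the ranges of Plod3 and Plod2 over libraries overlapped. Bmp1, the proteinase that removes C-terminal propeptides, averaged 104 TPM, and Adamts2, which removes N-terminal propeptides, 13.0 TPM.

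A larger part of the RNA of ESW cells came from collagen chains. The 44 chains took 9.33%, 8.84% and 8.98% of the estimated reads in Control replicates 1 to 3, 10.0%, 10.3% and 10.4% in ESW and 9.26%, 9.05% and 9.32% in CW. Every ESW library was above every Control and CW library, while the Control and CW ranges overlapped. The means were 9.05% ± 0.250 for Control, 10.2% ± 0.201 for ESW and 9.21% ± 0.138 for CW (mean ± SD of 3 libraries). ESW exceeded Control by 1.18 percentage points and CW by 1.02 (exact two-sided permutation p = 0.1 for each, the smallest that 3 against 3 allows, and 0.15 after Benjamini-Hochberg adjustment over the 6 tests of this share and the ratio below), and CW exceeded Control by 0.160 (exact permutation p = 0.5, adjusted 0.6). Without Col1a1 the chains took 6.49% in ESW against 5.89% in Control, a difference of 0.603 points. As a share of TPM, which weights long transcripts less, they took 3.31% against 2.81%, a difference of 0.501 points.

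Type I collagen consists of 2 α1 chains and 1 α2 chain, yet Col1a1 RNA was below Col1a2 RNA per length. The ratio of Col1a1 to Col1a2 TPM was 0.839, 0.825 and 0.848 in the Control libraries, 0.852, 0.894 and 0.868 in ESW and 0.861, 0.865 and 0.860 in CW. All ESW and CW values lay above all Control values, and those of ESW and CW overlapped. ESW exceeded Control by 0.0340 and CW exceeded Control by 0.0246 (exact two-sided permutation p = 0.1 and adjusted p = 0.15 each), while ESW and CW differed by 0.00934 (exact permutation p = 0.7, adjusted 0.7). By estimated counts in place of TPM the ratio was 1.15, 1.17 and 1.16 in the ESW libraries and 1.14 in each CW library, so these groups did not overlap, and they differed by 0.0235 (exact permutation p = 0.1). On that scale ESW exceeded Control by 0.0569 and CW exceeded Control by 0.0334. Of the other heterotypic collagens, the Col8a1 to Col8a2 TPM ratio was 9.15, 9.40 and 9.21 in Control, 8.67, 8.91 and 8.68 in ESW and 9.24, 9.37 and 9.08 in CW. Every ESW library was below the other 6, a description without a test. In the remaining pairs the groups overlapped: Col4a1 to Col4a2 was 1.33 to 1.38 over the 9 libraries, Col5a1 to Col5a2 0.588 to 0.649 and Col4a5 to Col4a6 11.3 to 13.7.

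**Figure D2:**
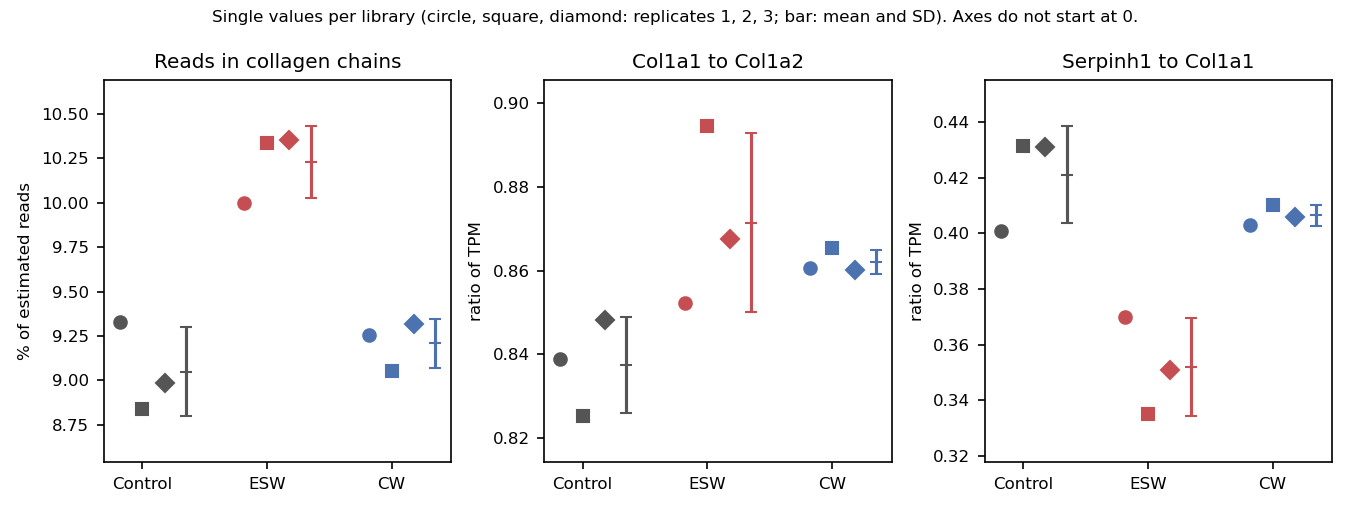
Per library, the percent of estimated reads in collagen chains (left), the ratio of Col1a1 to Col1a2 TPM (middle) and the ratio of Serpinh1 to Col1a1 TPM (right), with the mean and SD of each group beside its 3 libraries; no axis starts at 0. The chain share is 10.0% to 10.4% in ESW and 8.84% to 9.33% in the other groups. The Serpinh1 ratio, which was chosen after its values were seen and was not tested, is lowest in ESW.

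Against untreated cells, 9 of the 43 tested genes were higher in ESW cells and 0 were lower, at a Benjamini-Hochberg adjusted p under 0.05 in edgeR's quasi-likelihood test over 14706 genes. Over all genes tested, 4.76% were higher and 3.28% lower, so the members' 20.9% higher was above the background. The members were chosen with earlier results of these data known, so this excess is a description only. The 9 were the chains Col1a1, Col1a2, Col3a1, Col4a2 and Col8a2 and the processing genes Plod3, Pcolce, Plod1 and P4ha2. The median log2 difference of the 43 genes was 0.10, against -0.01 over all genes tested. Abundant genes were called more often: of all tested genes at 10 TPM or more, 8.02% were higher, against 33.3% of the 27 members at that level. The changes were small, from 1.11-fold for P4ha2 to 1.22-fold for Col1a1.

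Type I and type III chains rose in ESW cells. Per-library levels below are normalised CPM (estimated counts relative to the library total), scaled by the trimmed mean of M values and not by length. Col1a1 stood at 32261, 30220 and 31516 CPM in Control replicates 1 to 3, 37351, 38467 and 39191 in ESW and 32585, 31460 and 33413 in CW. The ESW libraries were all above the other 6, whose ranges overlapped. Its log2 difference was 0.29 ± 0.03 (SE) against Control (edgeR adjusted p = 9.54e-05) and 0.24 ± 0.03 against CW (edgeR adjusted p = 0.000827), the smallest p of the 43 genes in each comparison. Col1a2 stood at 29469, 27647 and 28211 CPM in Control, 32555, 32887 and 33824 in ESW and 28702, 27717 and 29441 in CW. Here too the ESW libraries lay apart, with a log2 difference of 0.22 ± 0.03 against Control (edgeR adjusted p = 0.000805) and 0.21 ± 0.03 against CW (edgeR adjusted p = 0.00167). Col3a1 stood at 15542, 14447 and 14205 CPM in Control, 16874, 17569 and 17063 in ESW and 15237, 14293 and 14593 in CW. The groups were arranged as for type I, and the log2 difference was 0.22 ± 0.04 against both Control (edgeR adjusted p = 0.00155) and CW (edgeR adjusted p = 0.00203).

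The remaining fibrillar chains that were well expressed did not pass the test against Control. Col5a1 differed by 0.10 ± 0.04 on the log2 scale (edgeR adjusted p = 0.168), Col5a2 by 0.08 ± 0.04 (0.304), Col5a3 by 0.07 ± 0.04 (0.267) and Col11a1 by 0.06 ± 0.04 (0.475). Against CW, Col5a1 differed by 0.11 ± 0.04 (edgeR adjusted p = 0.0982), Col5a2 by 0.14 ± 0.04 (0.0551), Col5a3 by 0.07 ± 0.04 (0.250) and Col11a1 by 0.08 ± 0.05 (0.315). The difference of Col5a2 from CW was called in 8 of 18 alternatives, among them DESeq2 (adjusted p = 0.0237), limma-voom (0.0464), length offsets (0.0226) and no filter (0.000653), and that of Col5a1 with no filter (edgeR adjusted p = 0.0150). Without Control replicate 1 both passed against Control (edgeR adjusted p = 0.0299 for Col5a1 and 0.0498 for Col5a2). For Col5a1 and Col5a2 the Control libraries themselves spread, since Control replicate 1 was the highest Control at 4285 and 5331 CPM, against ESW ranges of 4174 to 4443 and 4987 to 5471. As a share of chain TPM, Col5a1 was 2.65% ± 0.0703 for Control, 2.43% ± 0.0507 for ESW and 2.62% ± 0.0511 for CW (mean ± SD of 3 libraries).

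Col27a1, of type XXVII, was lower in ESW than in CW cells. It stood at 60.1, 73.1 and 81.1 CPM in Control, 68.2, 61.2 and 60.3 in ESW and 78.5, 82.2 and 81.0 in CW. The ESW libraries were all below the CW libraries, while the Control libraries spanned both. It fell by 0.35 ± 0.07 on the log2 scale against CW (edgeR adjusted p = 0.00828), a call lost without ESW replicate 3 (edgeR adjusted p = 0.0573). Against Control the log2 difference was -0.18 ± 0.07 (edgeR adjusted p = 0.150). Without Control replicate 1, the lowest of the Controls, it fell by 0.29 against Control (edgeR adjusted p = 0.00256), and with no filter it also passed (0.00712).

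Of the basement membrane chains, the Col4a1 and Col4a2 pair was higher in ESW than in CW. Col4a2 stood at 1528, 1352 and 1418 CPM in Control, 1508, 1662 and 1688 in ESW and 1432, 1351 and 1425 in CW. ESW was above CW in every library, and Control replicate 1 lay above ESW replicate 1. Its log2 difference was 0.21 ± 0.05 against CW (edgeR adjusted p = 0.0115) and 0.18 ± 0.05 against Control (edgeR adjusted p = 0.0260). Col4a1 stood at 2137, 1869 and 1917 CPM in Control, 2024, 2326 and 2292 in ESW and 1975, 1824 and 1959 in CW, the same arrangement of libraries. It differed by 0.21 ± 0.05 against CW (edgeR adjusted p = 0.0221) and by 0.17 ± 0.05 against Control, which did not pass (edgeR adjusted p = 0.0604). Col4a5, an X-linked chain of a second type IV network, differed by 0.02 ± 0.05 against Control and 0.14 ± 0.05 against CW (edgeR adjusted p = 0.847 and 0.0917), and Col4a6 by 0.06 ± 0.07 and 0.08 ± 0.07 (0.654 and 0.516). The call of Col4a2 against Control was lost without Control replicate 2 or 3 and without ESW replicate 2 or 3, with an edgeR adjusted p of up to 0.157, and against CW without ESW replicate 2 or 3 or CW replicate 2, up to 0.0871. That of Col4a1 against CW was lost without ESW replicate 2 or 3 or CW replicate 2 or 3, with an edgeR adjusted p of up to 0.127, and in DESeq2.

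The type VIII chains, which form the hexagonal lattice known from Descemet's membrane and vessel walls, both rose against CW. Col8a2 stood at 70.8, 62.1 and 63.0 CPM in Control, 73.2, 74.0 and 76.2 in ESW and 67.5, 61.6 and 64.3 in CW. The ESW libraries lay above all others, with a log2 difference of 0.19 ± 0.05 against Control (edgeR adjusted p = 0.0263) and 0.21 ± 0.05 against CW (edgeR adjusted p = 0.0171). Col8a1 differed by 0.16 ± 0.05 against CW (edgeR adjusted p = 0.0450) and by 0.08 ± 0.05 against Control (0.356). The call of Col8a2 was lost in each comparison without any of 4 libraries (ESW replicates 2 and 3 and replicates 2 and 3 of the other group), with an edgeR adjusted p of up to 0.133 against Control and 0.107 against CW. The call of Col8a1 was lost without ESW replicate 2 or 3, CW replicate 2 or 3 or Control replicate 2 (edgeR adjusted p up to 0.192), and with DESeq2's size factors, a filter at 1 CPM or length offsets. That of Col8a2 against Control was also lost with length offsets.

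Among the multiplexins, Col15a1, known from muscle and vessel basement membranes, was higher in ESW than in CW. It stood at 86.6, 81.4 and 77.7 CPM in Control, 84.0, 92.7 and 88.98 in ESW and 77.1, 69.2 and 73.4 in CW. The ESW libraries lay above all CW libraries, the CW libraries lay below all Control libraries, and ESW and Control overlapped. The log2 difference was 0.28 ± 0.05 against CW (edgeR adjusted p = 0.00351) and 0.11 ± 0.05 against Control (0.180), and CW differed from Control by -0.16 ± 0.05 (0.261). Col18a1, the source of endostatin, differed by 0.16 ± 0.06 against Control and 0.19 ± 0.06 against CW, neither past the threshold (edgeR adjusted p = 0.0886 and 0.0534).

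The fibril-associated chains held 0 genes higher in ESW and 1 lower, in the comparison with CW. Col20a1 stood at 7.08, 8.08 and 9.87 CPM in Control, 6.70, 7.29 and 7.77 in ESW and 9.49, 10.3 and 10.0 in CW, and rested on 238 to 484 estimated reads per library. The ESW libraries were below every CW library and overlapped with Control. It fell by 0.46 ± 0.11 on the log2 scale against CW (edgeR adjusted p = 0.0165), a call lost without ESW replicate 1 or 2 or CW replicate 2 or 3 (edgeR adjusted p up to 0.0794). Col12a1, the most abundant of the class, differed by 0.10 ± 0.04 against Control and 0.03 ± 0.04 against CW (edgeR adjusted p = 0.167 and 0.759). Col16a1 stood at 140, 141 and 147 CPM in Control, 150, 159 and 150 in ESW and 158, 162 and 151 in CW. Both water groups lay above Control and overlapped each other, with log2 differences of 0.10 ± 0.04 for ESW and 0.14 ± 0.04 for CW that did not pass (edgeR adjusted p = 0.144 and 0.239). Col6a3 of type VI was arranged in the same way, at 49.5, 44.9 and 52.0 CPM in Control, 56.7, 53.0 and 55.0 in ESW and 54.2, 61.9 and 54.0 in CW. Its log2 difference was 0.17 ± 0.06 for ESW and 0.22 ± 0.06 for CW against Control (edgeR adjusted p = 0.0936 and 0.198).

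**Figure D3:**
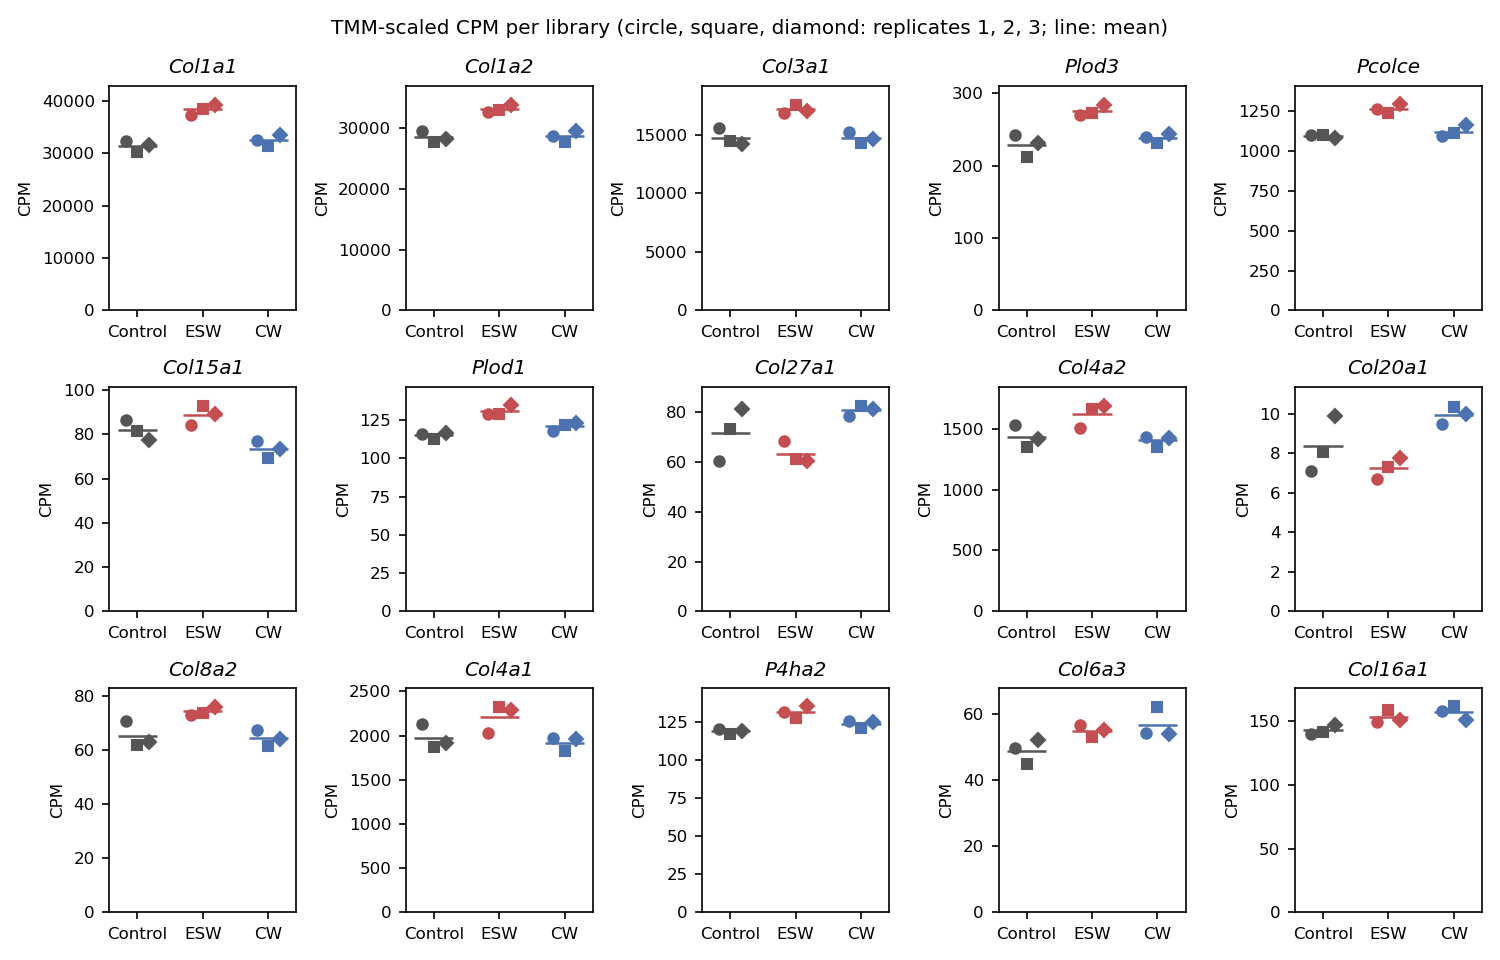
Normalised CPM in each library for 15 genes: Col1a1, Col1a2, Col3a1 and the 12 others with the smallest p over the 3 comparisons, with a line at each group mean and every axis starting at 0. The ESW points lie above all Control and CW points for Col1a1, Col1a2, Col3a1, Plod3, Pcolce, Plod1, Col8a2 and P4ha2, and below all CW points for Col27a1 and Col20a1.

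Of the lysyl hydroxylases, whose hydroxylysines are sites of glycosylation and crosslinks, Plod3 and Plod1 rose against Control and Plod2 did not pass. Plod3, which also carries glycosyltransferase activity, stood at 242, 212 and 232 CPM in Control, 270, 273 and 284 in ESW and 240, 232 and 244 in CW. The ESW libraries lay above all others, with a log2 difference of 0.27 ± 0.04 against Control (edgeR adjusted p = 0.00139) and 0.21 ± 0.05 against CW (edgeR adjusted p = 0.00919). The call against CW was lost without ESW replicate 3 or CW replicate 2 (edgeR adjusted p up to 0.0679). Plod1, which acts on lysines within the helix, stood at 116, 113 and 117 CPM in Control, 129, 129 and 135 in ESW and 118, 122 and 123 in CW. The 3 groups did not overlap, with ESW highest and CW between, and ESW exceeded Control by 0.18 ± 0.04 on the log2 scale (edgeR adjusted p = 0.00601) and CW by 0.11 ± 0.04 (0.0714, and an adjusted p of 0.0467 in DESeq2). The call against Control was lost without ESW replicate 3 (edgeR adjusted p = 0.0528) and with length offsets. Plod2, which acts on the telopeptide lysines, differed by 0.07 ± 0.05 against Control and 0.10 ± 0.05 against CW (edgeR adjusted p = 0.457 and 0.206).

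Of the prolyl 4-hydroxylase α subunits, P4ha2 rose against Control. It stood at 121, 117 and 119 CPM in Control, 132, 128 and 136 in ESW and 126, 121 and 125 in CW. The groups did not overlap, and ESW exceeded Control by 0.15 ± 0.04 on the log2 scale (edgeR adjusted p = 0.0226) and CW by 0.09 ± 0.04 (0.177). The call against Control was lost without Control replicate 2 or 3 or ESW replicate 3 (edgeR adjusted p up to 0.138) and with length offsets. P4ha1, the most abundant subunit, had a log2 difference of -0.06 ± 0.04 against Control and -0.02 ± 0.04 against CW, and P4ha3 one of 0.11 ± 0.04 and 0.05 ± 0.04, all short of the threshold (edgeR adjusted p = 0.365, 0.839, 0.113 and 0.489).

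Serpinh1, the collagen-specific chaperone, did not pass the test. It stood at 4746, 4668 and 4824 CPM in Control, 5045, 4723 and 4885 in ESW and 4686, 4551 and 4756 in CW. The ranges of all groups overlapped, and the log2 difference was 0.04 ± 0.03 against Control and 0.07 ± 0.03 against CW (edgeR adjusted p = 0.515 and 0.252). The ratio of Serpinh1 to Col1a1 TPM, a ratio chosen after these values were seen and given without a test, was 0.401, 0.431 and 0.431 in Control, 0.370, 0.335 and 0.351 in ESW and 0.403, 0.410 and 0.406 in CW.

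Among the genes of propeptide removal, Pcolce rose and the 2 proteinases did not pass. Pcolce stood at 1103, 1100 and 1085 CPM in Control, 1264, 1239 and 1295 in ESW and 1095, 1112 and 1163 in CW. The ESW libraries lay above all others, with a log2 difference of 0.21 ± 0.04 against Control (edgeR adjusted p = 0.00149) and 0.17 ± 0.04 against CW (edgeR adjusted p = 0.00643, and 0.0541 without ESW replicate 3). Bmp1 differed by 0.07 ± 0.04 against Control and -0.06 ± 0.04 against CW (edgeR adjusted p = 0.355 and 0.364). Adamts2 differed by 0.15 ± 0.05 and 0.08 ± 0.05 (edgeR adjusted p = 0.0719 and 0.353).

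Against the control water, 10 of the 43 tested genes were higher in ESW cells and 2 were lower, where 4.15% of all genes tested were higher and 3.99% lower. The 10 were Col1a1, Col1a2, Col3a1, Col15a1, Pcolce, Plod3, Col4a2, Col8a2, Col4a1 and Col8a1, and the 2 were Col27a1 and Col20a1. The median log2 difference of the 43 genes was 0.10 and that of all genes tested -0.00177. At 10 TPM or more, 37.0% of members were higher, against 7.29% of all tested genes at that level. The comparisons with Control and with CW share the ESW libraries, so their calls are not independent.

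The counts of both ESW comparisons moved with single libraries. Against Control, 5 members were called without ESW replicate 3 and 16, with 14 higher and 2 lower, without Control replicate 1. Calls over all genes moved too, from 1183 to 397 and 1544 in these 2 fits. Against CW, 5 members were called without ESW replicate 3, 7 without ESW replicate 2 and 6 without CW replicate 2. Over all genes the calls there went from 1197 to 314, 571 and 407. Col1a1, Col1a2, Col3a1, Plod3 and Pcolce against Control, and Col1a1, Col1a2, Col3a1 and Col15a1 against CW, were called in all of the 9 leave-one-out fits and the 9 other settings tried. With no filter on low counts 13 members were called against Control, 11 higher and 2 lower, and 17 against CW, 14 higher and 3 lower. That fit called 1530 and 1621 of all 24470 genes. Some differences short of the threshold passed in part of the 18 alternatives: Col4a1 in 4 and Col18a1 in 2 against Control, and Col18a1 and Col4a5 in 5 each against CW. Against Control, Adamts2 passed without ESW replicate 1, Col8a1 without Control replicate 1 and Col6a3 with no filter.

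Between the control water and untreated cells, 0 of the 43 genes were called by edgeR, by DESeq2 or by limma-voom, where 0.177% of all genes tested were called in either direction. At an unadjusted edgeR p under 0.05 there were 7 members, among 1452 of all genes tested. Without a filter on low counts Col6a3 was called higher and Col15a1 lower in CW. Of the abundant chains, CW differed from Control by 0.05 ± 0.03 for Col1a1, 0.01 ± 0.03 for Col1a2 and -0.00229 ± 0.0374 for Col3a1 on the log2 scale (edgeR adjusted p = 0.657, 0.962 and 0.992), and the sign turned with length offsets for both type I chains and with DESeq2's size factors for Col3a1.

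**Figure D4:**
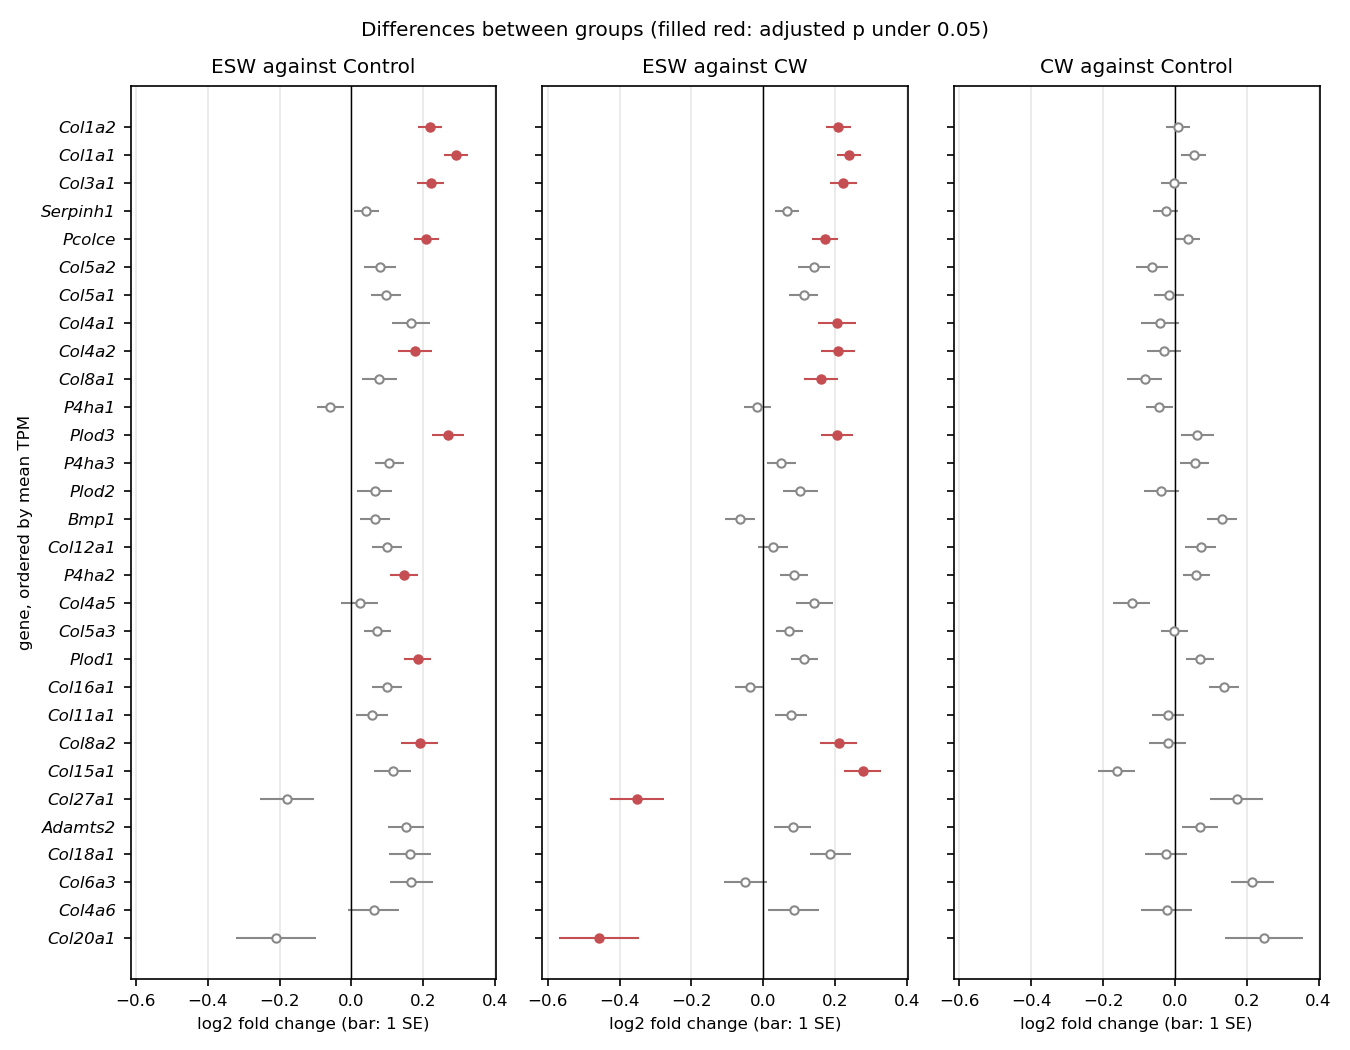
Log2 fold change with 1 SE for the 30 collagen genes at 1 TPM or more in the 3 comparisons, filled red where the edgeR adjusted p is under 0.05. Red points lie right of 0 in the first panel (9 genes), on both sides in the second (10 higher, 2 lower) and nowhere in the third.

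The transcript behind each value differed in kind between genes. Col1a1, Col1a2, Col3a1, Col4a1, Col4a2, Col5a2, Col15a1, Col18a1, Pcolce and Adamts2 have 1 transcript in the table, so their values do not depend on how reads were divided within the gene. Plod2 has a longer transcript of 3672 bases and a shorter one of 3609, and the longer took 92.9%, 91.3% and 90.9% of the gene's TPM in Control, 95.0%, 95.1% and 95.7% in ESW and 92.1%, 84.7% and 89.6% in CW. The ESW libraries were above all others, a description without a test. They were also above all others for the leading transcripts of Col5a3 and Serpinh1. For those of Col5a1, Col8a1, Col8a2, P4ha2, P4ha3 and Bmp1 the ESW and Control libraries overlapped. How many of all genes separate in this way was not counted. The longest Col12a1 transcript, of 11622 bases, held 77.5% ± 4.75 for Control, 64.3% ± 7.09 for ESW and 75.9% ± 2.61 for CW (mean ± SD of 3 libraries). The effective lengths that scale TPM also moved with the groups: for 11 of the 27 members at 10 TPM or more (40.7%) every ESW library was below every Control library, and for 0 above. Of all 7952 genes at that level, 19.9% were below and 1.3% above in the same way. For Col12a1 they were 12191, 11453 and 12005 bases in Control and 10970, 10648 and 11121 in ESW, and for Col3a1 5548, 5456 and 5608 against 5136, 5365 and 5397. With these lengths as offsets 9 members were again called against Control, where Col8a2, P4ha2 and Plod1 were lost and Col4a1, Col11a1 and Col12a1 gained. Over all 14706 genes that setting called 424 in place of 1183, 242 of them higher. Changes of calls with length offsets in other comparisons and lists are given with those results. The part of the lengths in the TPM values was not tested.

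Other enzymes and partners of collagen maturation were read from the same test as a list of 29 genes in the table, of which 23 were tested. The called share was 26.1% higher against Control and 21.7% against CW, where 4.76% and 4.15% of all genes tested were higher. The list was chosen with earlier results of these data known, so these shares are a description only. Of all tested genes at 10 TPM or more, 8.02% and 7.29% were higher. Against Control 6 were higher and 0 lower, with a median log2 difference of 0.09, against -0.01 over all genes tested. P3h3, a prolyl 3-hydroxylase family member, rose by 0.17 ± 0.04 (edgeR adjusted p = 0.00621) and Adamts14, an N-propeptidase, by 0.21 ± 0.05 (0.00858). Fkbp10, a collagen chaperone with prolyl isomerase activity, rose by 0.15 ± 0.04 (edgeR adjusted p = 0.0124), Loxl1, a lysyl oxidase, by 0.17 ± 0.04 (0.0204), Creb3l1, a transcription factor that acts on type I collagen genes, by 0.17 ± 0.05 (0.0310) and Colgalt1, the collagen galactosyltransferase, by 0.15 ± 0.04 (0.0386). Against CW 5 were higher and 0 lower, with a median of 0.09: Loxl1 by 0.19 ± 0.04, Fkbp10 by 0.16 ± 0.04, Sparc, a collagen-binding matrix protein, by 0.14 ± 0.03, Colgalt1 by 0.16 ± 0.04 and Sec24d, a coat protein of procollagen export, by 0.14 ± 0.04 (edgeR adjusted p = 0.0104, 0.0109, 0.0146, 0.0248 and 0.0265). P4hb, the β subunit that completes the prolyl 4-hydroxylase, differed by 0.04 ± 0.03 against Control (edgeR adjusted p = 0.509). Of the 6 genes higher than in Control, 1 (P3h3) was still called without ESW replicate 3, 2 without Control replicate 2 or 3 and 4 without ESW replicate 2. Of the 5 higher than in CW, 0 were still called without ESW replicate 3, 1 (Loxl1) without CW replicate 2 and 3 without ESW replicate 2 or CW replicate 1 or 3. With length offsets 2 of the 6 (P3h3 and Fkbp10) were still called against Control, where Adamts14, Colgalt1, Creb3l1 and Loxl1 lost their call (edgeR adjusted p = 0.105, 0.208, 0.111 and 0.430), and Colgalt1 lost it against CW (0.0598). Between CW and Control 0 of the 23 were called, where 0.177% of all genes tested were called in either direction.

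Collagen receptors and breakdown enzymes formed a list of 18, of which 13 were tested. In each ESW comparison 30.8% of the 13 were higher, where 4.76% of all genes tested were higher against Control and 4.15% against CW. This list too was chosen with earlier results of these data known, so the share is a description only. Against Control 4 were higher and 0 lower, with a median of 0.14: Itga11, the α subunit of a fibrillar collagen receptor, by 0.24 ± 0.04, Mrc2, an endocytic collagen receptor, by 0.23 ± 0.04, Ddr1, a receptor tyrosine kinase for collagen, by 0.21 ± 0.05, and Mmp2, gelatinase A, by 0.89 ± 0.18 (edgeR adjusted p = 0.00218, 0.00324, 0.00945 and 0.00506). Mmp2 was low, at 2.27, 2.66 and 1.65 CPM in Control, 3.63, 4.56 and 3.86 in ESW and 3.45, 2.69 and 2.67 in CW. Its ESW libraries were above all others, and ESW differed from CW by 0.47 ± 0.18 (edgeR adjusted p = 0.111). Against CW 4 of the 13 were higher and 0 lower, with a median of 0.13: Mrc2 by 0.22 ± 0.04, Itga11 by 0.20 ± 0.04, Ddr1 by 0.17 ± 0.05 and Itgb1, the common β1 partner of collagen integrins, by 0.13 ± 0.04 (edgeR adjusted p = 0.00553, 0.00790, 0.0327 and 0.0452). Against Control, Ddr1 lost its call without Control replicate 2 (edgeR adjusted p = 0.0666) or ESW replicate 3 (0.0878), and the others were called in all 9 leave-one-out fits. With length offsets Mrc2 (edgeR adjusted p = 0.0613) and Ddr1 (0.0501) lost their call against Control. Of the 4 higher than in CW, 0 were still called without ESW replicate 3, 1 (Mrc2) without CW replicate 2 and 2 without CW replicate 3. Between CW and Control 0 of the 13 were called, where 0.177% of all genes tested were called in either direction.

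Of the marker lists, smooth muscle and fibroblast held genes called by edgeR in the ESW comparisons. The myoblast, cardiomyocyte, chondrocyte, osteoblast, endothelial, epithelial and blood lists, with 1 to 5 genes tested in each, held 0 there. Of the 5 myoblast markers tested, 3 had a log2 difference above 0 against Control. Myod1 differed by 0.31 ± 0.10 (edgeR adjusted p = 0.0581) and Des by -0.34 ± 0.14 (0.144), each without overlap of the ESW and Control libraries. Against Control 2 of 5 smooth muscle markers were higher in ESW, Acta2 by 0.17 ± 0.03 and Smtn by 0.18 ± 0.04 (edgeR adjusted p = 0.00529 and 0.0113), and against CW 4 of 5, which were Acta2, Cnn1, Myh11 and Smtn. Tagln went the other way, by -0.08 ± 0.04 against Control and -0.03 ± 0.04 against CW (edgeR adjusted p = 0.161 and 0.681). Every ESW library was below every Control library for Tagln. Over all genes tested 4.76% were higher and 3.28% lower against Control, and 4.15% higher and 3.99% lower against CW. Of the 7 fibroblast markers, 6 were tested. S100a4 fell by 0.42 ± 0.06 against Control and by 0.32 ± 0.06 against CW (edgeR adjusted p = 0.000507 and 0.00513), Vim rose by 0.11 ± 0.03 against Control (0.0441) and Thy1 by 0.14 ± 0.04 against CW (0.0355). Acta2 and S100a4 were called in all 9 leave-one-out fits of each comparison, whereas Vim was called in 2 of them against Control and Thy1 in 5 against CW. Smtn was lost against Control without Control replicate 2 or ESW replicate 3. Of the 4 smooth muscle markers higher than in CW, 1 (Acta2) was still called without ESW replicate 3 or CW replicate 2, 2 without ESW replicate 2 and 3 without CW replicate 1 or 3. With length offsets Smtn lost its call in both comparisons, Vim against Control and Thy1 against CW. The part of these markers in the collagen values was not tested.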

How the data were processed

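The authors' deposited tables give, for each library, an estimated count, a TPM value and an effective length (bases after the fragment-length and bias model) per RefSeq transcript, per the file headers. The submitters' processing notes name Salmon 1.10.3 and DESeq2. The sources used here do not name the genome build of the index. All 114122 transcripts matched the RefSeq gene table of GRCr8, and estimated counts and TPM were summed per gene. Col21a1 and Pcolce2 are not in that table and were not analysed here. Estimated counts were rounded and tested in edgeR 4.0.16 (R 4.3.3; TMM, filterByExpr, quasi-likelihood F-test, all 9 libraries in 1 model with 6 residual degrees of freedom, 14706 genes, Benjamini-Hochberg, threshold 0.05). The common biological coefficient of variation was 4.84%. limma 3.58.1 and DESeq2 1.42.0 were alternatives. The edgeR test was also run on counts simulated as independent libraries with the spread fitted here. That run cannot show whether the real libraries came from separate cultures. Shares and ratios were compared by exact permutation. Totals of 26748673 to 48574618 reads leave little counting error for the abundant genes. The members, classes and lists were chosen with earlier results of these data known. Genes named with values are those called in any comparison, those at 10 TPM or more, and up to 2 leading chains per class; from each pathway list up to 6 called genes per comparison, to which P4hb was added after its values were seen. Per-library values are given for Col1a1, Col1a2, Col3a1 and the 12 others with the smallest p, and for Serpinh1 and Mmp2, added after their values were seen. Planned protein features were not computed.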

Additional observations from a re-analysis of the deposited data

How the results depend on the processing

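No called difference changed sign under the alternatives run. Leaving out 1 library at a time gave 5 to 16 called members for ESW against Control, and 5 to 16 for ESW against CW. Over all genes these fits called 397 to 1544 and 314 to 1486. With no filter on low counts ESW gave 13 called members against Control and 17 against CW, and the comparison of CW with Control gave 2. As a share of TPM, the chain share differed by 0.501 percentage points between ESW and Control and by 0.534 between ESW and CW, and without Col1a1 by 0.603 and 0.583; the reduction without Col1a1 follows from leaving out an abundant chain. The Col1a1 to Col1a2 ratio by estimated counts differed by 0.0569 between ESW and Control, 0.0334 between CW and Control and 0.0235 between ESW and CW, where the 2 groups no longer overlapped. Its TPM difference between ESW and CW was -0.00219 without ESW replicate 2. Differences near 0 that were not called changed sign in places. Between CW and Control, length offsets gave -0.00609 for Col1a1 and -0.0477 for Col1a2, and Col3a1 was at 0.00151 with DESeq2's size factors, 0.00209 with a filter at 1 CPM, 0.000485 with only the 2 groups compared and 0.000487 in DESeq2. Leaving out 1 library moved Col1a2 from -0.0124 to 0.0375 and Col3a1 from -0.0292 to 0.0401 there, Col4a5 from -0.0130 to 0.0822 between ESW and Control, and Col6a3 from -0.0842 to 0.0217 and P4ha1 from -0.0364 to 0.00796 between ESW and CW. Over all genes, average length offsets called 424 in place of 1183 for ESW against Control, 835 in place of 1197 for ESW against CW and 2 in place of 26 for CW against Control; DESeq2 called 78 and the fit with no filter 273 for CW against Control. The cause was not tested. The replicate block called 9, 12 and 0 members in the 3 comparisons and changed none of the members' calls. With it, Colgalt1 and Vim against Control and Itgb1 and Thy1 against CW lost their calls. To look for pairs, each gene's group mean was first subtracted from its log2 CPM. These deviations, and not the levels themselves, correlated across genes at -0.118 to 0.0402 between same-numbered libraries. Not every library correlated best with its own number, so the numbers were not taken as pairs. With 3 libraries a group, no exact permutation p can fall below 0.1, or 0.2 with 1 left out, and chains with few reads are limited by depth.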
